A study of Mus musculus with 6 samples.

Results

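Glutathione, thioredoxin and peroxide defence genes were examined in MS-5 stromal cells with and without leukaemic cells. The 40 genes were chosen by their known roles. These were regulation by NRF2, supply of glutathione, the thioredoxin system, removal of peroxide and superoxide, glutaredoxins and glutathione transferases. A quinone reductase, selenoprotein W and a methionine sulfoxide reductase were also included. All 40 passed the filter on low counts, out of 13221 genes tested and 35968 genes with a transcript in the quantified set.

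RNA was sequenced from MS-5 cells, a mouse bone marrow stromal line, and each group had 3 libraries. In the MS-5 only group (MO1, MO2 and MO3) the cells were cultured alone, and in the co-culture group (MC1, MC2 and MC3) SKM-1 cells, a human acute myeloid leukaemia (AML) line, were plated for 24 hr over a confluent MS-5 layer at 4 AML cells per stromal cell and 750000 SKM-1 cells/ml. Both groups were kept in RPMI medium with foetal bovine serum and glutamine, and the labels name no other treatment. Before RNA extraction the leukaemic cells were taken off. The stromal layer was then rinsed and treated with dilute trypsin to release leukaemic cells that still adhered. The model is 1 stromal line of 1 species with AML cells of another. Nothing in the labels states that the libraries came from separate cultures, so p-values measure the spread between these libraries, which may be technical. The comparison asks which stromal genes change when AML cells are in contact. In such bulk RNA, fewer cells of a type and less RNA per cell cannot be told apart.

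Cells remove hydrogen peroxide and lipid peroxides through a pair of thiol systems, both fed by NADPH. In the first, glutathione is made by glutamate-cysteine ligase and glutathione synthetase, is used by glutathione peroxidases, glutaredoxins and glutathione transferases, and is recycled by glutathione reductase. In the second, thioredoxin reductase keeps thioredoxin reduced, and thioredoxin in turn restores peroxiredoxins. NRF2, encoded by Nfe2l2 and held in check by KEAP1, binds the antioxidant response element near many of these genes, and marrow stroma is one of the tissues in which these systems have been studied in connection with leukaemia.

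The 3 MS-5 only libraries held 23978881 to 27182453 estimated counts and the 3 co-culture libraries 26258451 to 35694987. Levels between libraries are given as CPM (counts scaled per library after TMM normalisation), and levels between genes as TPM (transcripts scaled per library, with length taken into account). MO2 and MC3 stood apart from the other 4 libraries. The second principal component, with 25.6% of the variance, separated both of them from the rest, and their mitochondrial share of counts was 6.07% and 5.92% against 10.6% to 13.2%. Of 14 stromal markers 13 were tested, and their summed level ran from 13700 to 18400 CPM. None passed the threshold between the groups. With a term for MO2 and MC3 (described below) 3 of the markers were higher and 2 lower in co-culture (13.9% and 16.4% of all genes tested). Vimentin (Vim), the highest of them by mean TPM, was at 2805 to 4487 TPM in MS-5 only and 2918 to 3859 TPM in co-culture, whereas lumican (Lum), the lowest, was at 0 in 5 libraries with a single count in MO3. Of 18 leukocyte markers, 13 were tested, 8 rose in co-culture and 2 (Lyz2 and Cd53, named after their values were seen) had a negative difference that did not pass. Their summed level was 59.6, 67.3 and 72.1 CPM in MO1 to MO3 and 121, 421 and 118 CPM in MC1 to MC3, so it was highest in MC2. Rac2, a small GTPase of blood cells and the leukocyte marker with the highest mean TPM, was at 0.0166 to 3.90 TPM in MS-5 only and at 46.2, 233 and 65.3 TPM in MC1, MC2 and MC3. Irf8, a transcription factor of myeloid cells, named here after its values were seen, was at 0 in all 3 MS-5 only libraries, and Cd48, a surface protein of leukocytes and the marker with the lowest mean TPM, was at 0 to 0.0662 TPM in all 6. What part these markers' cells or reads had in the differences below was not tested.

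None of the 40 genes passed an adjusted p of 0.1 in edgeR's quasi-likelihood test of co-culture against MS-5 only, a threshold that 4.38% of all genes tested passed. At an unadjusted p under 0.05 only Gpx3 was on the higher side and only Gclc on the lower side, where 8.62% and 5.63% of all genes lay. DESeq2's Wald test called 1 of the 40, Gclc, lower (9.59% of all genes called), and limma on log2(TPM + 0.5) called none (2.0% of all genes), with 3 of the 40 at an unadjusted p under 0.05, all lower (2.69% of all genes on that side). The 40 differences had a median of -0.03 on the log2 scale, beside -0.02 over all genes tested, with 18 positive and 22 negative values between -0.71 (Gsto1) and 0.98 (Txnip). The summed level of all 40 genes was 7902, 8186 and 8180 TPM in MS-5 only and 8140, 7744 and 8349 TPM in co-culture, a ratio of means of 0.999.

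**Figure D1:**
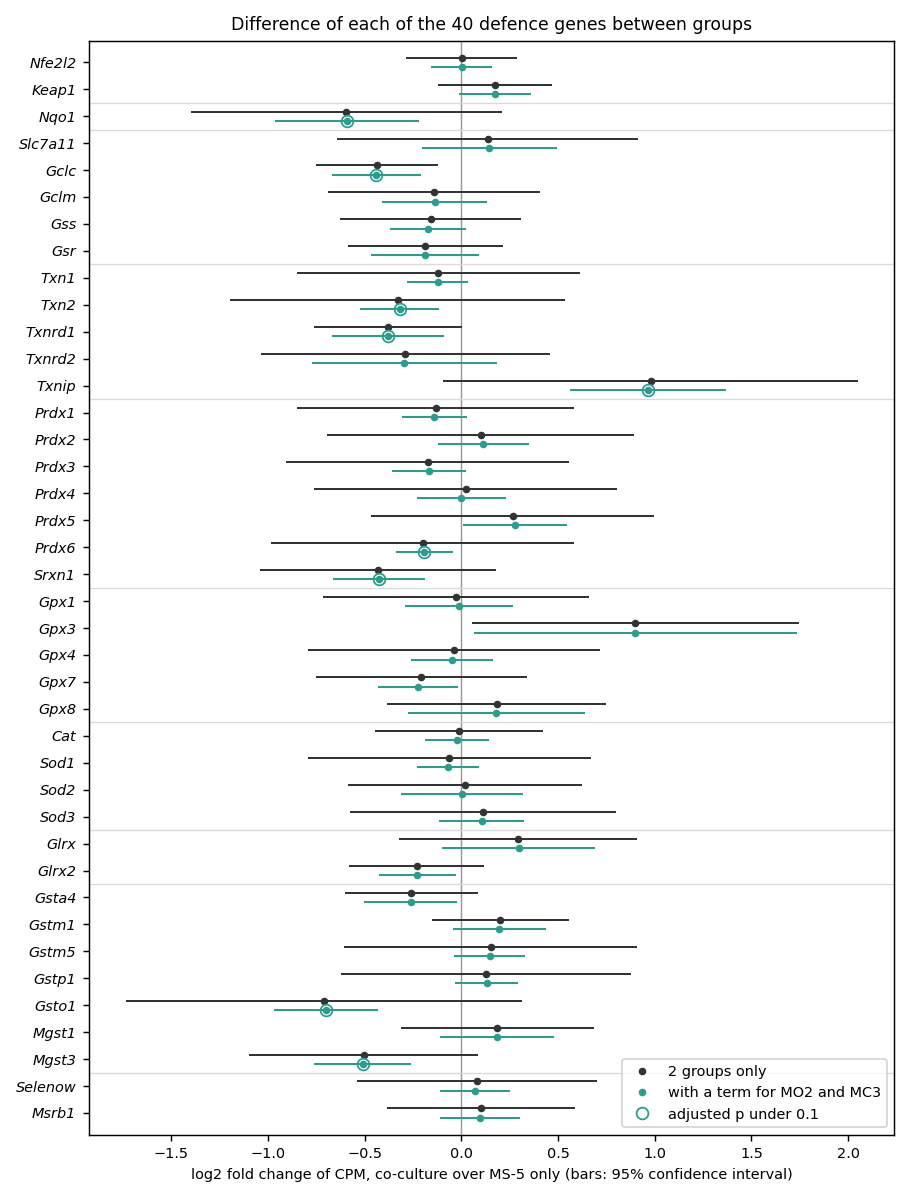
Log2 fold change of CPM (x axis, co-culture over MS-5 only) of each of the 40 genes, with its 95% confidence interval, in the fit with 2 groups only (black) and in the fit with an added term for MO2 and MC3 (green), with rings at an adjusted p under 0.1. No black point is ringed, and 9 green points are, with Txnip on the higher side and the other 8 on the lower side.

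The libraries that stood apart touched this group of genes strongly. On the CPM scale 31 of the 40 genes (77.5%) were lowest within their group in both MO2 and MC3, where 36.9% of all genes tested were. The 40 genes are short, with a median effective length of 1066 bases beside 2098 for all genes, and of all genes under 1000 bases 56.7% were lowest in both libraries, as were 46.8% of those from 1000 to 2000 bases. On the TPM scale, in which length is divided out, 8 of the 40 (20.0%) were lowest in both, beside 4.7% of all genes. The share still differed by length, at 16.8% of genes under 1000 bases and 4.6% of those from 1000 to 2000 bases. Gsto1 had the lowest values for its group, by 1.16 (log2 CPM) in MO2 and 1.08 in MC3 below the mean of the other 2 libraries, and Txnip the highest, by 1.03 and 1.09 above it. On the CPM scale 2 genes, Txnip and Nfe2l2, were highest in both libraries, and on the TPM scale 14 were (35.0%, beside 72.6% of all genes). Of genes under 1000 bases 34.9% were highest in both on the TPM scale, as were 69.7% of those from 1000 to 2000 bases. Because the split of MO2 and MC3 from the rest adds to the spread within both groups, a second fit had a term for them. Their position was read from principal components of these same 6 libraries, which the study's own plot also shows. The labels name no batch, so the term was not set independently of the data it was fitted to.

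**Figure D2:**
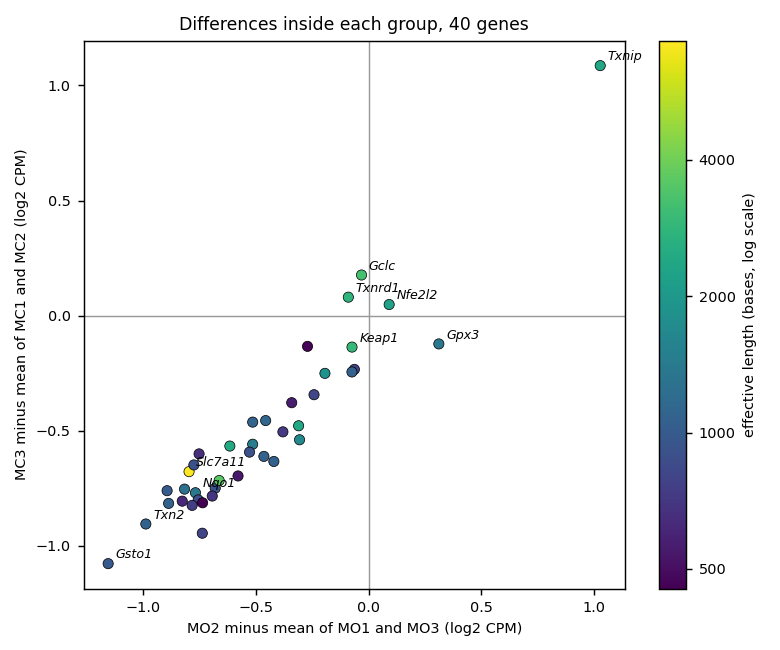
For each of the 40 genes (points), the difference in log2 CPM of MO2 from the mean of MO1 and MO3 (x axis) and of MC3 from the mean of MC1 and MC2 (y axis), with effective length as colour on a log scale. Most genes lie in the lower left corner, down to Gsto1, and Txnip lies alone at the upper right.

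With the term for MO2 and MC3, 9 of the 40 genes passed an adjusted p of 0.1 in edgeR. Txnip rose, and 8 fell, namely Gsto1, Mgst3, Gclc, Srxn1, Nqo1, Txn2, Txnrd1 and Prdx6. Of all genes tested 13.9% rose and 16.4% fell in that fit, so 1 of 40 (2.5%) was below the background on the higher side and 8 of 40 (20.0%) was near it on the lower side. When MO2 and MC3 were left out altogether, which left 2 libraries a group, 3 of the 40 passed, Txnip higher and Gclc and Gsto1 lower, among 13.0% of all genes. CPM of the groups did not overlap for 5 of the 40, higher in co-culture for Gpx3 and Keap1 (11.6% of all genes) and lower for Gclc, Txnrd1 and Gsta4 (9.6% of all genes). TPM did not overlap for 9, higher for Gpx3 and Prdx5 (7.68% of all genes) and lower for Gsto1, Mgst3, Nqo1, Srxn1, Glrx2, Gpx7 and Txnrd2 (7.53% of all genes).

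**Figure D3:**
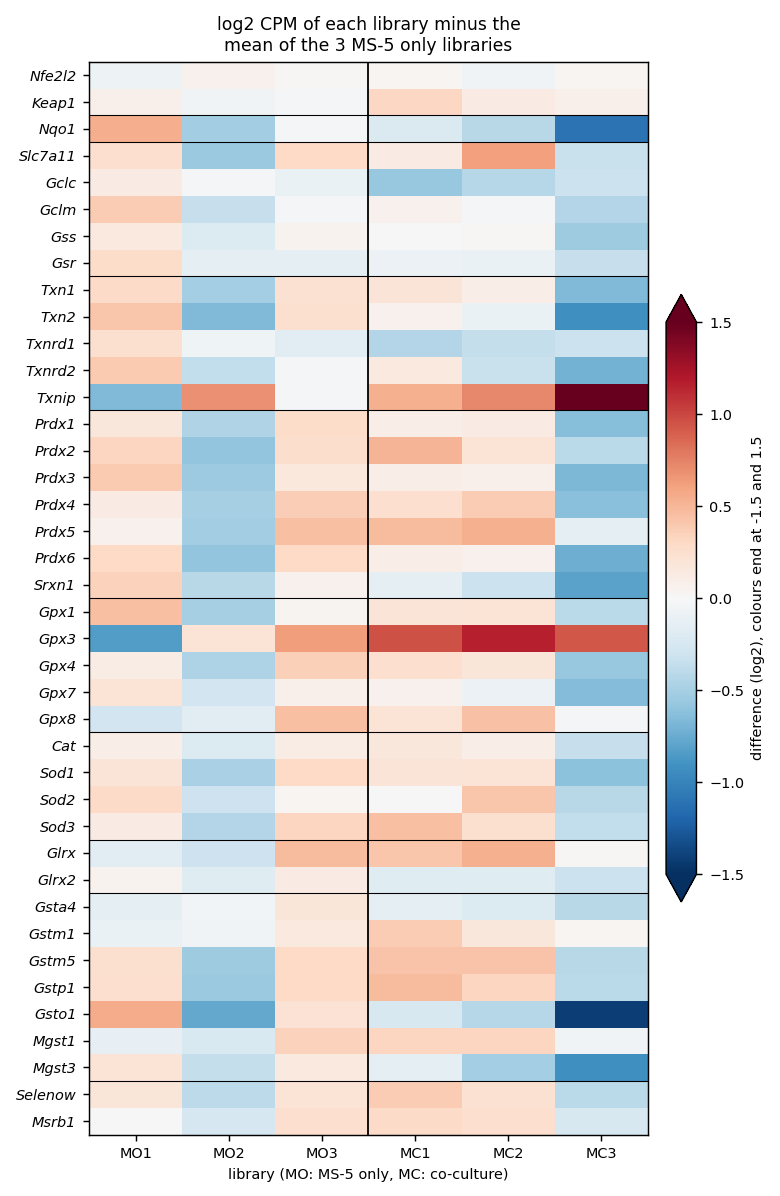
Log2 CPM of each gene (rows, grouped by class) in each library (columns) minus the mean of the 3 MS-5 only libraries, from blue (lower) to red (higher). The MO2 and MC3 columns are mostly blue, Gpx3 is red in all 3 co-culture libraries, and Gclc and Txnrd1 are blue in all 3.

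Among the regulators, Nfe2l2 (chr2:75675513-75704641, minus strand, GRCm38), which encodes NRF2, had the smallest difference of the 40 genes. It was at 152, 167 and 162 CPM in MO1 to MO3 and at 163, 155 and 164 CPM in MC1 to MC3. The groups overlapped throughout, and the log2 fold change was 0.00 with a 95% confidence interval from -0.29 to 0.29. Keap1 (chr9:21229730-21239361, minus strand), the adaptor through which NRF2 is degraded, was at 89.7, 82.2 and 83.5 CPM in MS-5 only and 106, 92.6 and 89.9 CPM in co-culture. Every co-culture library was above every MS-5 only library, by a narrow margin, and the log2 fold change of 0.17 ± 0.12 (SE) did not pass in edgeR (adjusted p = 0.625) or with the term for MO2 and MC3 (adjusted p = 0.162).

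Nqo1 (chr8:107388225-107403206, minus strand), which encodes a quinone reductase and is a classical NRF2 target, was at 50.1, 24.0 and 33.9 CPM in MS-5 only and at 29.7, 25.8 and 16.0 CPM in co-culture. The groups overlapped, since MO2 lay below MC1 and MC2. Its fold was 0.66 in the libraries other than MO2 and MC3 and 0.668 between those 2. The log2 fold change was -0.59 ± 0.33 (SE) in edgeR (adjusted p = 0.512) and -0.59 ± 0.15 with the term for MO2 and MC3, where it passed (adjusted p = 0.0438). Without MO1 or MC3 the edgeR value moved to -0.26 or -0.38.

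Of the 5 genes for glutathione supply, Gclc was lower in co-culture in every library, and the other 4 overlapped. Gclc (chr9:77754535-77794485, plus strand) encodes the catalytic subunit of glutamate-cysteine ligase, which sets the rate of glutathione synthesis. It was at 62.6, 56.5 and 53.4 CPM in MS-5 only and at 38.8, 42.6 and 46.0 CPM in co-culture. The lowest MS-5 only library thus stood above the highest co-culture library, and means were 57.5 ± 4.70 and 42.5 ± 3.61 CPM (SD, n = 3). The log2 fold change was -0.44 ± 0.13 (SE, 95% confidence interval -0.75 to -0.12), the smallest p among the 40 genes in edgeR but past no adjusted threshold (unadjusted p = 0.0141, adjusted p = 0.178). It passed by DESeq2's Wald test (adjusted p = 0.0715), with the term for MO2 and MC3 (adjusted p = 0.0276) and without those libraries (adjusted p = 0.09). On the TPM scale the groups overlapped, at 20.6, 28.8 and 17.1 TPM against 13.0, 13.4 and 23.7 TPM, because MC3 lay above MO1 and MO3. MO2 and MC3 were each the highest of their group.

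Gclm, the modifier subunit of the same enzyme, was at 53.9 to 88.8 CPM in MS-5 only and 50.5 to 71.8 CPM in co-culture, with a log2 fold change of -0.14 (95% confidence interval -0.69 to 0.40). The ratio of Gclc to Gclm in TPM was 0.24, 0.353 and 0.263 in MO1 to MO3 and 0.187, 0.217 and 0.319 in MC1 to MC3, which overlapped. Gss, glutathione synthetase, had a log2 fold change of -0.16 (-0.63 to 0.31), and Gsr, which reduces oxidised glutathione, one of -0.19 (-0.59 to 0.21), which was -0.01 without MO1. Slc7a11, the cystine carrier of the plasma membrane that brings in the limiting amino acid, was the least abundant of the 40 genes. It was at 15.7, 9.01 and 16.3 CPM in MS-5 only and 14.4, 20.2 and 10.5 CPM in co-culture, and highest in MC2. On the TPM scale MC2 stood apart more, at 9.72 TPM against 1.71 to 2.08 TPM in the other 5 libraries. There the short non-coding form of 481 bases was at 0 TPM in all MS-5 only libraries and at 0.231, 7.63 and 0 TPM in MC1 to MC3, while the coding form of 9223 bases was between 1.61 and 2.01 TPM in all 6, highest in MC2. MC2 is also the library with the highest leukocyte marker sum, whose part in this value was not tested.

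In the thioredoxin system Txnip had the largest difference of the 40 genes over all 6 libraries. Txnip (chr3:96557957-96561883, plus strand) encodes a protein that binds thioredoxin and blocks it, and that also restrains glucose uptake. It was at 132, 336 and 206 CPM in MS-5 only and 301, 343 and 683 CPM in co-culture. MO2 lay above MC1 and just below MC2, so the groups overlapped, but co-culture was higher both among the libraries other than MO2 and MC3 (fold 1.91) and between those 2 (fold 2.03). The log2 fold change was 0.98 ± 0.45 (SE, 95% confidence interval -0.09 to 2.05, adjusted p = 0.397 in edgeR) and became 0.96 ± 0.17 (adjusted p = 0.0173) with the term for MO2 and MC3. Its size in the fit without that term rested partly on MC3, without which it was 0.52, below the 0.94 of Gpx3 in the same libraries.

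Of the thioredoxin reductases, the cytosolic one was lower in every co-culture library in CPM and the mitochondrial one in TPM. Txnrd1 (chr10:82833951-82897712, plus strand), the cytosolic reductase, was at 316, 257 and 238 CPM in MS-5 only and 197, 210 and 215 CPM in co-culture. All 3 co-culture libraries lay below the lowest MS-5 only library, but in TPM the groups overlapped (121, 152 and 88.1 against 76.7, 76.8 and 131 TPM). The log2 fold change was -0.38 ± 0.16 (SE, adjusted p = 0.355 in edgeR), or -0.38 ± 0.12 with the term for MO2 and MC3, where it passed (adjusted p = 0.0707). Without MO1 the edgeR value was -0.23. Txnrd2, the mitochondrial reductase, was at only 4.68 to 7.94 CPM and 3.70 to 6.68 CPM, with a log2 fold change of -0.29 (-1.04 to 0.46), and in TPM at 4.98 to 5.82 against 3.70 to 4.65. The TPM ratio of Txnrd1 to Txnrd2 was 17.5 to 30.5 in MS-5 only and 16.5 to 34.0 in co-culture.

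Of the thioredoxins, the mitochondrial one passed in 1 fit and the cytosolic one in neither. Txn1, the cytosolic form, was at 278, 161 and 267 CPM in MS-5 only and 261, 245 and 145 CPM in co-culture, with a log2 fold change of -0.12 (-0.85 to 0.61). Txn2 (chr15:77915047-77929006, minus strand), the mitochondrial form, was at 304, 144 and 269 CPM and at 239, 212 and 120 CPM. MO2 lay below MC1 and MC2, and within both sets of libraries the fold was below 1, at 0.786 and 0.833. Its log2 fold change was -0.33 ± 0.36 (SE, adjusted p = 0.804 in edgeR) and -0.32 ± 0.08 with the term for MO2 and MC3, where it passed (adjusted p = 0.0448). The edgeR value moved with single libraries, to -0.10 without MO1, -0.09 without MC3, -0.60 without MO2 and -0.54 without MC1.

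Peroxiredoxins, which reduce peroxides with electrons from thioredoxin, were the most abundant class at 2138 ± 111 TPM in MS-5 only and 2199 ± 94.6 TPM in co-culture (SD, n = 3, summed with sulfiredoxin). Prdx1, the main cytosolic form, was at 631, 408 and 678 CPM in MS-5 only and 597, 610 and 359 CPM in co-culture. On the log2 scale the difference was -0.13 (-0.85 to 0.58). Prdx2 (cytosol), Prdx3 (mitochondria) and Prdx4 (endoplasmic reticulum) had log2 fold changes of 0.10, -0.18 and 0.02, with intervals that each spanned 0 by more than 0.5 on either side. Prdx5, found in mitochondria, peroxisomes and cytosol, was at 361, 240 and 470 CPM and at 477, 498 and 311 CPM. On the TPM scale Prdx5 was higher in every co-culture library, at 409, 433 and 537 TPM against 566, 593 and 580 TPM, but it did not pass in edgeR (log2 fold change 0.26, adjusted p = 0.821) or with the term for MO2 and MC3 (adjusted p = 0.131). Prdx6 (chr1:161240112-161251219, minus strand), which works with glutathione and not thioredoxin, was at 283, 153 and 283 CPM and at 246, 241 and 138 CPM, and fell only with the term for MO2 and MC3 (log2 fold change -0.19, adjusted p = 0.0753, and 0.896 in the fit without that term). In the fit without the term its value ran from -0.44 without MO2 to 0.02 without MC3.

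Srxn1 (chr2:152105516-152111376, plus strand) encodes sulfiredoxin, which repairs overoxidised peroxiredoxins. It was at 231, 137 and 190 CPM in MS-5 only and 165, 145 and 104 CPM in co-culture. On the CPM scale MO2 lay below MC1 and MC2, whereas on the TPM scale all 3 MS-5 only libraries (102, 93.7 and 78.8 TPM) were above all 3 co-culture libraries (69.6, 63.4 and 68.8 TPM). Srxn1 had a log2 fold change of -0.43 ± 0.26 (SE, adjusted p = 0.538 in edgeR) and -0.43 ± 0.10 with the term for MO2 and MC3, where it passed (adjusted p = 0.0319). Without MO1 or MC3 the edgeR value was -0.22 or -0.27.

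**Figure D4:**
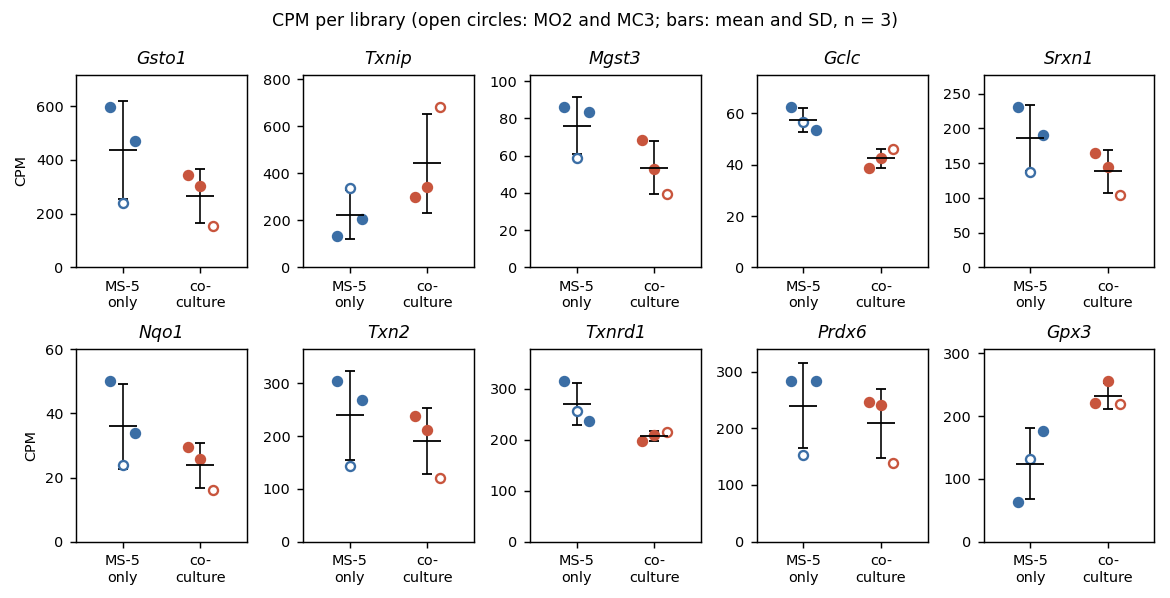
CPM per library (y axes start at 0) of the 9 genes that passed with the term for MO2 and MC3, and of Gpx3, with mean and SD (n = 3), open circles for MO2 and MC3. Among the genes that fell, MC3 lies below MO2 in each panel, and in Gclc and Txnrd1 the groups do not overlap.

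Promoter windows were read for members that carry the antioxidant response element core, since several of the genes that fell with the term for MO2 and MC3 are known NRF2 targets. Windows ran from 250 bases before to 50 after each RefSeq transcript start (GRCm38.p6), and 35 of the 40 genes had one. No entry was found for Gclc, Gsr, Gsta4, Prdx6 and Sod3. The core TGACNNNGC, searched on both strands, was in 8 of 46 windows (17.4%), 1 each of Gclm, Gstm5, Mgst1, Nfe2l2, Prdx1, Sod1, Srxn1 and Txnrd1, beside 12.4% of all 32851 windows. The AP-1 site TGAGTCA was in 6 of 46 (13.0%), of Glrx, Gstm5, Gstp1, Prdx1 and Srxn1, beside 5.2% of all windows, and in Prdx1 it overlapped the core. The windows of 4 NRF2-linked genes are printed 5′ to 3′ on the strand of the gene, Srxn1 and Txnrd1 because they fell with that term and Gclm and Prdx1 because they carry the same core and did not pass. Capitals mark the core, which in all 4 is read on the opposite strand. It lies 92 bases before the start in Txnrd1, 134 in Gclm and 133 in Prdx1, and after the start in Srxn1.
Srxn1 (GRCm38.p6, chr2:152105274-152105573, plus strand): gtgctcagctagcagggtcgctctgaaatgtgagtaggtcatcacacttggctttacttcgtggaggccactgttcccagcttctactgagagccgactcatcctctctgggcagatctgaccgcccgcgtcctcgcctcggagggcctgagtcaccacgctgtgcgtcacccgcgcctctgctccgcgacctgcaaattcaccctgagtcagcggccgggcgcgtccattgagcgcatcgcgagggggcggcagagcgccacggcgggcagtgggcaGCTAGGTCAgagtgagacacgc
Txnrd1 (GRCm38.p6, chr10:82858956-82859255, plus strand): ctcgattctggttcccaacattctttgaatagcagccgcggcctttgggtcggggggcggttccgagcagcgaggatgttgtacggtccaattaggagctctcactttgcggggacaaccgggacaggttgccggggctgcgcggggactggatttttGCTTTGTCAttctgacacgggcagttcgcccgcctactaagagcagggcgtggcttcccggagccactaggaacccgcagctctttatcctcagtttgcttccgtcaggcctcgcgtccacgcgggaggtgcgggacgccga
Gclm (GRCm38.p6, chr3:122245307-122245606, plus strand): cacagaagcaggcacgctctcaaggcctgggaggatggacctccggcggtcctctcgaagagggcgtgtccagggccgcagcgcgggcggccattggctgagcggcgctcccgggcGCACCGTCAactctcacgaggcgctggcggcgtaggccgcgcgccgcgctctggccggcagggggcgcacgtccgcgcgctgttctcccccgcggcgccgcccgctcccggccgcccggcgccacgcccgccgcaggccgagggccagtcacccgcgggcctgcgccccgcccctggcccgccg
Prdx1 (GRCm38.p6, chr4:116685349-116685648, plus strand): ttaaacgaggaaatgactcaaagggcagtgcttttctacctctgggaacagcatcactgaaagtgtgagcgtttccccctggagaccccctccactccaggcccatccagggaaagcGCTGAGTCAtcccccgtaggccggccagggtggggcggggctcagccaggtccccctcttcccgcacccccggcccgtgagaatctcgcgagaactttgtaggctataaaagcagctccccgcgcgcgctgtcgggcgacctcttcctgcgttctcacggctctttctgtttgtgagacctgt
These matches are letters in a window and not measured sites. Nqo1, Txn2, Gsto1 and Mgst3, which also fell with the term for MO2 and MC3, have windows without the core. A core more than 250 bases before the start would not have been read.

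Among glutathione peroxidases, Gpx3 was higher in every co-culture library. Gpx3 (chr11:54902453-54910377, plus strand), the secreted form, was at 64.0, 132 and 177 CPM in MS-5 only and 222, 256 and 219 CPM in co-culture, a fold of 1.87. The groups did not overlap on either scale, and the 3 MS-5 only libraries differed widely among themselves (124 ± 56.9 against 232 ± 20.9 CPM, SD, n = 3). The log2 fold change was 0.90 ± 0.35 (SE, 95% confidence interval 0.05 to 1.75, unadjusted p = 0.0403), but the adjusted p was 0.314 in edgeR and 0.117 with the term for MO2 and MC3. The sum of both secreted enzymes, Gpx3 and the extracellular superoxide dismutase Sod3, was 132, 246 and 225 TPM in MS-5 only and 276, 274 and 360 TPM in co-culture. Sod3 itself overlapped, at 82.9, 86.9 and 92.8 TPM against 105, 86.2 and 92.1 TPM, so the sum was higher in every library through Gpx3.

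Gpx4, which reduces lipid peroxides in membranes and so guards against ferroptosis, was the most abundant of the 40 genes at 1203 TPM on average. It was at 755, 508 and 893 CPM in MS-5 only and 833, 794 and 472 CPM in co-culture. The difference was -0.04 on the log2 scale (-0.80 to 0.72), or -0.05 (-0.26 to 0.17) with the term for MO2 and MC3. Gpx1, the main peroxidase of cytosol and mitochondria, had a log2 fold change of -0.03 (-0.72 to 0.66). The 2 peroxidases of the endoplasmic reticulum pointed opposite ways without passing, Gpx7 at -0.21 (-0.75 to 0.34) and Gpx8 at 0.18 (-0.38 to 0.75). On the TPM scale Gpx7 was lower in each co-culture library, at 63.7, 69.1 and 59.4 TPM against 56.7, 50.4 and 54.9 TPM.

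Catalase and the superoxide dismutases differed least as a class, with summed levels of 961 ± 40.5 and 943 ± 65.3 TPM (SD, n = 3). Cat, the peroxide-splitting enzyme of peroxisomes, was at 68.9, 55.7 and 69.5 CPM in MS-5 only and 72.5, 69.0 and 50.6 CPM in co-culture. Sod1 (cytosol) had a log2 fold change of -0.06 (-0.79 to 0.67), Sod2 (mitochondria) of 0.02 (-0.59 to 0.62) and Sod3 of 0.11 (-0.58 to 0.80). With the term for MO2 and MC3 the intervals of Cat, Sod1 and Sod2 narrowed to -0.19 to 0.14, -0.23 to 0.09 and -0.31 to 0.32. Sod2 was highest in MC2 (143 CPM against 107 in MC1 and 80.8 in MC3), in its 2 most abundant forms, which are annotated as non-coding. Its coding form of 5861 bases was lowest in MC2, at 4.94 TPM against 6.66 to 11.1 TPM in the other 5 libraries.

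Glutaredoxins remove glutathione from protein thiols. Glrx, the cytosolic form, was at 152, 139 and 239 CPM in MS-5 only and 229, 248 and 174 CPM in co-culture (log2 fold change 0.29, -0.32 to 0.91, and 0.57 without MO3). Glrx2, the mitochondrial form, was at 21.5, 18.2 and 22.6 CPM and at 18.3, 18.2 and 16.6 CPM (log2 fold change -0.23, -0.58 to 0.12), and on the TPM scale every co-culture library (41.8 to 51.1 TPM) was below every MS-5 only library (51.9 to 58.8 TPM), by less than 1 TPM at the closest. Neither passed, with or without the term for MO2 and MC3.

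Glutathione transferases, which couple glutathione to electrophiles, summed to 1561, 1584 and 1552 TPM in MS-5 only and 1481, 1297 and 1464 TPM in co-culture, a ratio of means of 0.903 with no overlap. The lower sum was that of Gsto1, since the other 6 summed to 911, 1168 and 1054 TPM against 1107, 984 and 1197 TPM, which overlapped, and 4 of the 7 genes were on the higher side, with a median log2 fold change of 0.13. Gsto1, the second most abundant of the 7 by its mean over 6 libraries, was lower by the largest difference. Gsto1 (chr19:47854970-47864790, plus strand), an omega-class transferase with dehydroascorbate reductase activity, was at 598, 238 and 472 CPM in MS-5 only and 344, 302 and 153 CPM in co-culture. MO2 lay below MC1 and MC2 in CPM, but in TPM the groups did not overlap (650, 415 and 498 against 374, 312 and 267 TPM). The log2 fold change was -0.71 ± 0.43 (SE, adjusted p = 0.542 in edgeR) and -0.70 ± 0.11 (adjusted p = 0.0158) with the term for MO2 and MC3, the smallest adjusted p of the 40 genes in that fit. The fold was 0.603 in the libraries other than MO2 and MC3 and 0.64 between those 2, and in edgeR the log2 value was -0.40 without MO1 and -0.43 without MC3.

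Mgst3 (chr1:167371966-167393841, minus strand), a transferase and peroxidase of the endoplasmic reticulum membrane, was at 86.3, 58.6 and 83.3 CPM in MS-5 only and 68.2, 52.8 and 39.6 CPM in co-culture. Its groups overlapped in CPM and not in TPM (95.8 to 107 against 59.5 to 80.7 TPM), and its log2 fold change was -0.51 ± 0.25 (SE, adjusted p = 0.43 in edgeR, 0.0242 with the term for MO2 and MC3), or -0.33 without MC3. Gsta4, which handles the lipid peroxidation product 4-hydroxynonenal, was lower in each co-culture library, at 77.5, 82.9 and 96.8 CPM against 76.9, 73.9 and 64.1 CPM, with a gap of under 1 CPM between MO1 and MC1, and did not pass (log2 fold change -0.26, adjusted p = 0.503 in edgeR, 0.114 with the term for MO2 and MC3). The other 4 had values on the higher side that did not pass in either fit: Gstm1 at 0.20, Mgst1 at 0.19, Gstm5 at 0.15 and Gstp1 at 0.13 on the log2 scale. Mgst1 was the most abundant of the 7 transferases by its mean over 6 libraries. In MS-5 only Gsto1 was above it (520.9 against 414.4 TPM), and in co-culture below it (317.5 against 482.1 TPM). Selenow and Msrb1, both selenoproteins, the second of which reduces oxidised methionine, had log2 fold changes of 0.08 (-0.54 to 0.70) and 0.10 (-0.39 to 0.59).

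**Figure D5:**
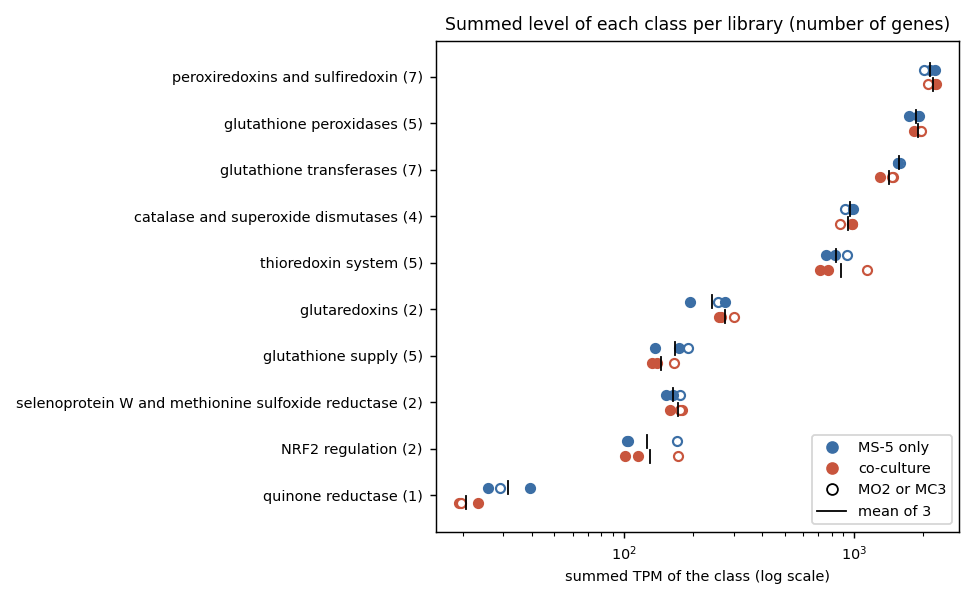
Summed TPM of each class (x axis, log scale) per library, blue for MS-5 only and red for co-culture, open circles for MO2 and MC3, with a black line at each mean of 3. Quinone reductase and glutathione transferases are lower in every co-culture library, and the other 8 classes overlap.

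In level, the 40 genes spanned from Gpx4 at 1203 TPM to Slc7a11 at 3.24 TPM, as the mean over 6 libraries. Gpx4 (1134 to 1310 TPM) was above every other member in each library. Prdx1 (657 to 747 TPM) and Sod1 (619 to 766 TPM) came next and overlapped each other, followed by Prdx5 (409 to 593 TPM), Mgst1 (334 to 538 TPM) and Gsto1 (267 to 650 TPM), which overlapped in turn. At the other end Nqo1 (26.1 TPM) and Gss (26.1 TPM) were level, Gclc followed at 19.4 TPM, and Txnrd2 (3.70 to 5.82 TPM) overlapped Slc7a11 (1.71 to 9.72 TPM) only through MC2. Cytosolic forms were above mitochondrial forms of the same enzyme. The TPM ratio of Txn1 to Txn2 was 1.17 to 1.44 in MS-5 only and 1.38 to 1.53 in co-culture, and that of Sod1 to Sod2 was 5.78 to 7.23 and 4.19 to 6.55.

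Single transcripts were read as a description, chosen after their values were seen. Of 196 transcripts of the 40 genes, 96 reached 5 TPM in a library, of which 5 were higher (5.21%) and 7 lower (7.29%) in co-culture without overlap, beside 5.84% and 8.4% of all 19799 transcripts at that level. A Gpx1 form of 787 bases (ENSMUST00000191997.1) was at 10.7, 19.3 and 13.5 TPM in MS-5 only and 28.9, 67.3 and 63.5 TPM in co-culture, although the gene's summed level overlapped. A Gpx4 form of 735 bases (ENSMUST00000183037.1) was at 360, 371 and 317 TPM and at 302, 279 and 298 TPM. A Prdx1 form of 2294 bases was at 196, 200 and 213 TPM and at 184, 163 and 165 TPM, while its form of 611 bases was highest in MC2, at 455 TPM against 319 to 356 TPM in the other 5 libraries.

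Some members share sequence with other genes, and an estimated count can be split among such copies. Of the 31-base words of its transcripts, Gpx4 shared 19.5% with other genes (chiefly Gpx4-ps2), Gstp1 19.3% (chiefly Gstp2), Gstm1 14.4% and Sod2 12.1%. The genes that share with Gpx4 held 6 to 35 counts a library, beside 15944 to 27290 for Gpx4 itself, and those that share with Gstm1 held 1876 to 2922 beside 2877 to 5260, so the level of Gstm1 is less certain than that of Gpx4. The 9 genes that passed with the term for MO2 and MC3 shared at most 1.54% (Txn2), and Gclc, Txnrd1, Nqo1 and Gsto1 shared none.

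Other genes of the same pathways were read from 7 lists of 115 genes. With the term for MO2 and MC3, 13.9% of all genes tested were higher and 16.4% lower. These shares stand beside each list's counts with the term, here and in the next paragraph. Without the term 4.38% of all genes passed. Among 11 partners and regulators of NRF2, Maff, a small MAF protein that pairs with NRF2 or with repressors, rose. It was at 12.2 CPM in each MS-5 only library and at 24.4, 24.6 and 25.1 CPM in MC1 to MC3. Its level thus rose by 1.02 ± 0.12 on the log2 scale (SE, adjusted p = 0.0734 in edgeR). In CPM MO2 and MC3 did not stand apart. In TPM they were each the highest of their group, at 7.59, 12.5 and 7.45 TPM against 15.3, 14.5 and 25.4 TPM. With the term for MO2 and MC3, 2 of the 11 were higher and 1 lower. Among 24 other NRF2 targets, Hmox1, the haem-degrading enzyme that answers to both NRF2 and BACH1, rose from 122, 103 and 121 CPM to 194, 180 and 160 CPM (log2 fold change 0.62 ± 0.14, SE, adjusted p = 0.0916 in edgeR), and the groups did not overlap. The median log2 fold change of the 24 targets was -0.02, with 12 positive and 12 negative, and no other member of the list passed without the term for MO2 and MC3, with which 2 were higher and 4 lower. Without MO1, MO2 or MO3 no gene of any kind passed. With any 1 of the 6 libraries left out Hmox1 did not pass (lowest adjusted p = 0.102 in edgeR), and the adjusted p of Maff ran from 0.0456 to 0.3. Over the same fits the log2 fold change stayed at 1.00 to 1.04 for Maff and 0.55 to 0.70 for Hmox1.

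Of 16 other glutathione transferases tested, 1 rose. This was Gstp3, which had 1, 3 and 0 counts in MO1 to MO3 and 28, 116 and 22 in MC1 to MC3 (adjusted p = 0.093 in edgeR). MC2 was highest, as it was for leukocyte markers, whose part was not tested. The genes that share 31-base words with Gstp1, Gstp3 among them, held 2 to 148 counts a library, beside 2320 to 4935 for Gstp1. The level of Gstp3 is thus uncertain, and what part Gstp1 reads had in it was not tested. With the term for MO2 and MC3, 1 of the 16 other transferases was higher and 1 lower. None of 15 glutathione turnover genes tested passed in edgeR without the term, and 1 was higher and 3 lower with it. Without it the nearest 3 were Mtr, methionine synthase, at -0.56 (log2 fold change, adjusted p = 0.104), Cbs, which directs homocysteine toward cysteine, at 2.41 from under 0.7 CPM (adjusted p = 0.245), and Cth, which releases cysteine, at -0.68 (adjusted p = 0.295). In selenoprotein synthesis none of 8 passed in edgeR without the added term. With the term for MO2 and MC3, 4 of the 8 were lower, beside 16.4% of all genes tested. Without it 7 of 8 were on the lower side, with a median log2 fold change of -0.26. The nearest were Sephs1 at -0.34 (adjusted p = 0.289), Sepsecs at -0.39 (adjusted p = 0.455) and Pstk at -0.24 (adjusted p = 0.634), all 3 of which act in making or charging selenocysteine or are related to such enzymes. Among 11 other selenoproteins tested none passed without the term, and 2 were higher with it (Selenoh, adjusted p = 0.0402, and Selenom, adjusted p = 0.0927, in edgeR). The nearest without the term were Selenoh at 0.42, Selenom at 0.31 and Txnrd3 at -0.44 on the log2 scale. Among 21 other thioredoxin-fold and repair genes none passed without the term, and 1 was higher and 3 lower with it. The nearest without the term were Oxr1 at -0.27, Sesn3 at 0.40 and Arrdc4, a relative of Txnip, at 0.49 on the log2 scale.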

How the data were processed

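The 6 RNA-seq libraries, 3 from MS-5 cells alone and 3 from MS-5 cells after co-culture with SKM-1 cells, were assigned to groups from the sample labels. CPM are counts divided by the TMM-normalized library size. The authors prepared stranded mRNA libraries and quantified them with kallisto 0.43.0 on a mouse transcript index (GRCm38). Whether strand was used in counting is not given in the sources used here. The deposited values are estimated counts per transcript, not normalized between libraries, and TPM, in which the authors' estimated counts are divided by effective length and scaled to one total per library. The deposited lengths and effective lengths, in bases, gave each gene's length. Human reads, if any, entered the counts where they matched the mouse index.

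Of 118489 transcripts, 116728 matched GENCODE M21 (GRCm38) by version and length, and 1761, with 0.476% to 0.562% of counts, were left out. Estimated counts of a gene's transcripts were added up, rounded, filtered with filterByExpr and normalized by TMM. In R 4.3.3, edgeR 4.0.16 gave the quasi-likelihood test, with p adjusted by Benjamini-Hochberg over 13221 genes at a threshold of 0.1. Intervals are 95% confidence intervals of that fit. With 3 libraries against 3 an exact permutation test cannot go below p = 0.1, so none was used. All 40 genes are named. From each other list, genes past the threshold were named (at most 5), or else the 3 with the smallest p, and of each marker list the genes with the highest and lowest mean TPM. The members and lists were chosen with earlier results of these data known.

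The alternatives were size factors of DESeq2 or the library size alone, the Wald test of DESeq2 1.42.0, limma 3.58.1 on log2 TPM with a pseudocount of 0.5, 0.1 or 1, an effective length offset, other filters, other thresholds, the replicate number as a block, each library left out, a term for MO2 and MC3, and genes left out whose excess in MC2 was over 3 times that of MC1 and MC3. Leaving out MO2 and MC3 together was added after seeing the data. The fits were tested on simulated data. Promoter windows are RefSeq's (GRCm38.p6), and shared sequence was counted in 31-base words of the matched transcripts.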

Additional observations from a re-analysis of the deposited data

How the results depend on the processing

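With 3 libraries a group, of which MO2 and MC3 stood apart, intervals were wide, and no alternative varied the depth. Over 741 alternatives for single members, 673 kept direction and side of the threshold, 13 passed it and 55 changed direction, all in genes with a reported difference from -0.20 to 0.15. Leaving out 1 library at a time changed the direction in 20 of the 40 genes, and the cause was not tested.

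The count of all genes called, 579, became 2 at a threshold of 0.05, 1268 with DESeq2's Wald test, 264 and 111 with limma at pseudocounts of 0.5 and 1, 3999 with the term for MO2 and MC3, 1702 without those libraries and 3 without genes in excess in MC2. It was 0 without MO1, MO2 or MO3, 283 without MC1, 281 without MC2 and 549 without MC3, so 0 to 549 with a library left out. Members called were 0 in these, except 1 with DESeq2's Wald test, 9 with the term and 3 without MO2 and MC3. Without genes in excess in MC2, 21 members were tested. Listed pathway genes called, 3 at first, were 0 at 0.05, 5 with DESeq2's Wald test, 1 and 0 with limma at 0.5 and 1, 25 with the term, 8 without MO2 and MC3, 0 without genes in excess in MC2, and 0 to 2 with a library left out. The cause was not tested for any of these.

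Direction changed for Cat (0.00602 with the length offset, 0.0527 without MO2 and MC3), Gpx1 (0.0311, 0.0312 and 0.0311 with limma at pseudocounts of 0.5, 0.1 and 1, and 0.00865 with the length offset), Gpx4 (0.00122 without MO2 and MC3), Nfe2l2 (-0.0107 with a filter of 5 counts in 3 libraries, -0.00168 with no filter) and Prdx4 (-0.00672, -0.00675 and -0.00669 with limma at the same pseudocounts, -0.000907 with the term). With a library left out the log2 fold change ran from -0.123 to 0.129 for Cat, -0.305 to 0.0872 for Gclm, -0.246 to 0.249 for Gpx1, -0.241 to 0.178 for Gpx4, -0.261 to 0.000421 for Gss, -0.077 to 0.382 for Gstm5, -0.103 to 0.352 for Gstp1, -0.0214 to 0.253 for Msrb1, -0.0214 to 0.028 for Nfe2l2, -0.332 to 0.0754 for Prdx1, -0.147 to 0.312 for Prdx2, -0.407 to 0.0495 for Prdx3, -0.192 to 0.275 for Prdx4, -0.445 to 0.024 for Prdx6, -0.0949 to 0.28 for Selenow, -0.143 to 0.338 for Slc7a11, -0.274 to 0.161 for Sod1, -0.219 to 0.197 for Sod2, -0.084 to 0.313 for Sod3 and -0.335 to 0.102 for Txn1. Without a change of direction, it moved by over 1.5 times for Glrx (0.143 to 0.573), Gpx7 (-0.364 to -0.023), Gpx8 (0.0539 to 0.445), Gsr (-0.267 to -0.0107), Gsta4 (-0.323 to -0.165), Gstm1 (0.0902 to 0.278), Keap1 (0.0892 to 0.237), Mgst1 (0.0705 to 0.377), Prdx5 (0.0411 to 0.509) and Txnrd2 (-0.554 to -0.0519), and for Gsto1, Mgst3, Nqo1, Srxn1, Txn2, Txnip and Txnrd1 as given beside their results.

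Replicate numbers did not pair the libraries: deviations from the group means correlated at 0.532 for MO1 and MC1, -0.291 for MO2 and MC2 and -0.516 for MO3 and MC3 (across genes, which are not independent), and MO2 went with MC3 (0.73). With the number as a replicate block 444 genes and 0 members were called, and Sod2 turned to -0.00487.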
